A study of Mus musculus with 28 samples.

Results

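The naive pluripotency factors examined here were the 10 transcription regulators *Klf2*, *Klf4*, *Klf5*, *Esrrb*, *Tfcp2l1*, *Tbx3*, *Prdm14*, *Zfp42*, *Nr5a2* and *Nr0b1*, taken by symbol from the 24984 gene rows of the nascent RNA tables. The list was set by name and by no rule on a measured value, but it was chosen with earlier results of these data known. All 10 were present in each table and all 10 passed the expression limit of a mean above 0.5 RPKM (reads per kilobase, scaled to library size) in at least 1 genotype in every comparison. Mouse embryonic stem cells, wild type (WT) or EloA null, were labelled with 5-bromouridine, and the labelled RNA was immunopurified and sequenced (Bru-seq), which reports transcription during the labelling period. EloA, or Elongin A, is a Pol II elongation factor. Cells grew on feeder fibroblasts with serum, LIF and the 2 inhibitors PD0325901 (1 μM, against MEK) and CHIR99021 (3 μM, against GSK3), and were depleted of feeders before labelling. The labels name the cells as CCE28 for growth and as CJ7 for labelling, and which of the names holds cannot be told from them. There were 6 groups of 2 libraries. In steady state, WT and EloA null cells received 2 mM bromouridine for 10 min with no other drug. In the recovery groups, WT and EloA null cells were held in 1 μM flavopiridol for 60 min, which blocks productive elongation through P-TEFb, then washed and labelled with 2 mM bromouridine for 5 min or for 10 min. The EloA null cells are a single line, so that a difference between genotypes and a difference between 2 lines cannot be told apart.

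Naive pluripotency is the state of the preimplantation epiblast, held in culture by LIF signalling through STAT3 and by inhibition of MEK and GSK3. The factors listed above act beneath those inputs and upon each other: LIF raises *Klf4* and *Tfcp2l1*, GSK3 inhibition relieves repression of *Esrrb* and *Tfcp2l1* by Tcf7l1, and MEK inhibition sustains *Klf2* and *Prdm14*. As cells leave the naive state these genes are shut down within days, while *Pou5f1* and *Sox2* stay on. None of this is a result of the libraries described here.

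The library sizes behind the RPKM, recovered from the RPKM steps, lay between 9857527 and 28547357 reads and were smallest in 5-min recovery; whether they are raw totals or totals rescaled by a normalization factor cannot be told. Reads behind a factor ranged from 50 to 328 per library for *Nr0b1* and from 61 to 486 for *Klf2*, against 10108 to 41779 for *Esrrb*, so that counting error weighs most on the first pair. *Eloa*, the targeted gene, was not lower in the null-labelled libraries: in steady state its RPKM was 1.18 and 1.16 in the WT libraries against 1.96 and 1.89 in the null-labelled ones, and it was higher at both recovery times as well. Where the allele is disrupted is not given in the sources used here, so nascent RNA from *Eloa* does not check the labels, and genotypes are named below as labelled. The first steady-state EloA null library is null by its title but carries a wild type genotype label, and the steady-state differences most changed without it are given beside the result. Over all genes the median log2 ratio of EloA null over WT was 0.03 in steady state, -0.06 at 5 min and 0.06 at 10 min. Chromosome 14 stood apart, with medians of 0.50, 0.46 and 0.51. Among 16 fibroblast genes the summed RPKM lay between 14.04 and 14.6 in the null-labelled and between 14.3 and 14.5 in the WT steady-state libraries, of which *Fn1* alone made up 79.3 to 85.8%, and without it the sums were 1.99 to 2.37 and 2.57 to 3.00.

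In steady state the naive factors were among the most transcribed genes of the WT cells. *Zfp42*, which encodes the zinc-finger protein REX1 and is a standard naive marker, was highest, with 85.7 and 82.4 RPKM in the WT libraries, and ranked 13th of 10796 expressed genes. The T-box factor *Tbx3* followed with 25.8 and 23.2, and the lowest was *Nr0b1* with 1.46 and 0.873. The span from *Zfp42* to *Nr0b1* was 72.0-fold. RPKM is already per length, and these are levels of nascent RNA, not of mRNA or protein.

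Between those ends the order of WT means was *Klf5* (19.0 RPKM), *Tfcp2l1* (17.7), *Klf2* (11.6), *Klf4* (11.3), *Esrrb* (8.19), *Nr5a2* (5.76) and *Prdm14* (5.18). Neighbours in this order had separate ranges over the replicates except for *Klf5* and *Tfcp2l1* and for *Klf2* and *Klf4*, whose ranges overlapped. Across the 10 factors the median percentile among expressed genes was 95.8. *Nr0b1* sat apart, with 28.4% of expressed genes below it.

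**Figure D1:**
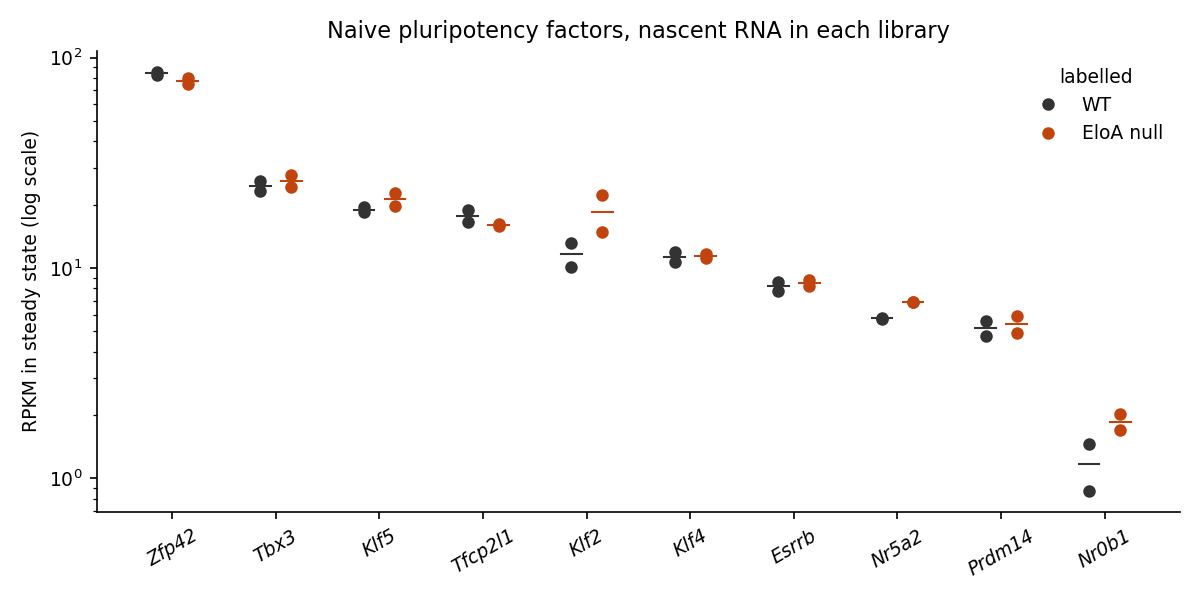
RPKM of the 10 naive factors in the 4 steady-state libraries on a log axis; each point is a library, bars are group means of 2, black is WT and orange is labelled EloA null. *Zfp42* is highest at 84.0 in WT and *Nr0b1* lowest at 1.17, and the 2 genotypes lie close together for most factors, with *Klf2* and *Nr0b1* higher in the null-labelled libraries.

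Whether the network was transcribed differently without EloA was asked first in steady state. In 4 of the 10 factors both null-labelled libraries lay above both WT libraries, where 32% of 11347 genes did, and in 2 they lay below, where 21.4% did. *Klf2* and *Nr0b1* were each 1.59-fold higher with no overlap, and 6.24% of genes met that rule of 1.5-fold. No factor passed limma's test in steady state (0 of 10 at an adjusted p under 0.05, and 1 of 10 at an unadjusted p under 0.05, which 18.4% of genes reached), and neither did any gene (0%). Without the steady-state EloA null library that carries the wild type label, the log2 differences of *Klf2* and *Nr0b1* went from 0.65 and 0.66 to 0.94 and 0.55. Those of *Klf4*, *Tbx3* and *Prdm14* went from 0.02, 0.08 and 0.06 to -0.01, -0.02 and -0.06, and those of *Klf5*, *Esrrb* and *Zfp42* from 0.16, 0.05 and -0.12 to 0.05, 0.10 and -0.08. *Klf2* and *Nr0b1* did not both stay past 1.5-fold with no overlap without it, nor without any other single steady-state library. At 5 min 1 factor lay wholly above WT and 5 wholly below (15.4% and 25% of 8985 genes), and at 10 min 3 above and 5 below (33.5% and 21.8% of 10241 genes). Past 1.5-fold with no overlap there was no factor lower in steady state (1.5% of genes) and none at 5 min (4.36% of genes higher, 4.91% lower). At 10 min there was 1, *Nr0b1*, higher (8.43%), and none lower (2.25%). In the recovery tables too limma called no factor and no gene (0%) after adjustment, with 1 factor at 5 min and 2 at 10 min under 0.05 before it, as were 9.42% and 20.5% of genes. With 2 libraries against 2, an exact permutation test cannot go below p = 0.333. In simulated data the steady-state limma fit recovered 0 of 49 genes changed 1.5-fold and 38 of 50 changed 4-fold. In that setting, with few genes changed, differences of the size seen in the factors were mostly out of its reach. Single factors were therefore tested in the limma fit over all 12 libraries, which averages the difference within the 3 tables. That fit called 3 of 10: *Nr0b1* and *Nr5a2* higher, where 10.4% of 11975 genes were, and *Tfcp2l1* lower, where 8.08% were. The median of the 10 log2 differences was -0.10, beside 0.01 over all genes. Its sign was not the same in each condition: 0.07 in steady state (0.02 without the library labelled wild type), -0.20 at 5 min and -0.09 at 10 min.

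**Figure D2:**
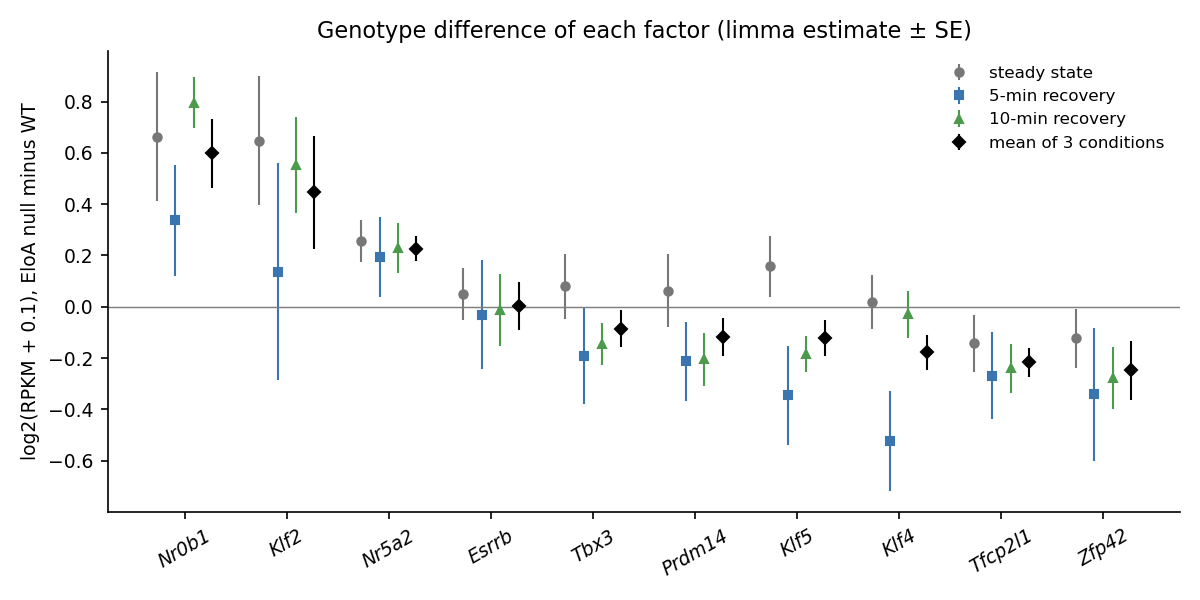
Difference between genotypes of each factor on the log2(RPKM + 0.1) scale, EloA null minus WT, as limma estimates with bars of 1 SE for steady state, 5-min recovery, 10-min recovery (2 libraries a genotype each) and the mean of the 3. *Nr0b1* (0.60) and *Nr5a2* (0.23) lie above 0 and *Tfcp2l1* (-0.22) below 0 in each condition, whereas *Klf5* is above 0 in steady state (0.16) and below it in recovery.

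Both factors that rose are nuclear receptors. *Nr0b1* encodes DAX1, a receptor that lacks the usual zinc-finger DNA-binding domain and acts through partner proteins, and lies on the X chromosome (chrX:86191775-86195947, GRCm38, plus strand; 4.2 kb, 2 exons). Its steady-state RPKM was 1.46 and 0.873 in WT and 2.02 and 1.70 in the null-labelled libraries. The groups did not overlap, but the WT pair was further apart than the null-labelled pair. At 10 min the WT libraries held 2.86 and 2.88 and the null-labelled ones 5.29 and 4.83, a 1.76-fold difference that was much wider than the spread within either group (limma adjusted p = 0.0934). At 5 min the groups overlapped, at 2.13 and 1.83 against 2.12 and 2.99. Over the 3 conditions *Nr0b1* was higher by 0.60 on the log2 scale (SE 0.13, limma adjusted p = 0.0185). Without the first EloA null library of steady state or of 10-min recovery the adjusted p rose to 0.0521 and 0.0569 at differences of 0.56 and 0.58. The median difference over 379 genes of the X chromosome was -0.02.

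*Nr5a2* encodes LRH-1, a receptor that binds regulatory regions of *Pou5f1*, and spans chr1:136842562-136960448 on the minus strand (117.9 kb). WT libraries read 5.73 and 5.80 RPKM in steady state, against 6.88 and 6.93. At 5 min they read 2.45 and 2.48 against 3.02 and 2.65, and at 10 min 1.42 and 1.43 against 1.69 and 1.68. The null-labelled libraries were therefore higher in 6 of 6 libraries, by 1.20-fold, 1.15-fold and 1.18-fold, and no condition overlapped; 8.79% of 8217 genes expressed in all 3 conditions shared that pattern. The mean difference was 0.23 (SE 0.05, limma adjusted p = 0.0148). The adjusted p was 0.0501 without the first EloA null library of 10-min recovery and 0.0560 after quantile normalization.

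*Tfcp2l1*, a CP2-family factor downstream of LIF and GSK3 inhibition (chr1:118627923-118685168, plus strand, 57.2 kb), was the factor that fell. Steady-state RPKM was 18.9 and 16.6 in WT and 15.8 and 16.3 in the null-labelled libraries. At 5 min it was 13.95 and 14.05 against 11.27 and 11.96, and at 10 min 21.2 and 21.6 against 19.1 and 17.2. All null-labelled libraries were below all WT libraries in each condition, as in 10.1% of the 8217 genes. The mean difference was -0.22 (SE 0.06, limma adjusted p = 0.0302). This call was the least firm of the 3: it missed the threshold under the replicate block (adjusted p = 0.0513) and in 9 of the 12 fits that left out a library, where the adjusted p ran from 0.0348 to 0.0874.

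The promoter windows of the 3 factors are shown because these were the factors called in the 12-library fit. They are RefSeq sequences of GRCm38.p6, 5′ to 3′ on the strand of the gene, from 250 bases upstream of an annotated start and cut where an annotated exon begins; matches were counted over the full 250 bases. Capitals mark matches, on either strand, to TATAAA (a core promoter element), AGGTCA (a nuclear receptor half-site) and CACCC (the core of KLF sites). *Nr5a2* has a pair of annotated starts.
Nr0b1, chrX:86191525-86191774: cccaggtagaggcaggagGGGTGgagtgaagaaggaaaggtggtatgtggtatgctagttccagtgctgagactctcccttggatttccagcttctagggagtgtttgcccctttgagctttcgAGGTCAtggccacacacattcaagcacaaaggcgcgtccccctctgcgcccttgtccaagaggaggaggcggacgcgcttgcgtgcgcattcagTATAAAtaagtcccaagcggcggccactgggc
Nr5a2, distal start, chr1:136960449-136960698: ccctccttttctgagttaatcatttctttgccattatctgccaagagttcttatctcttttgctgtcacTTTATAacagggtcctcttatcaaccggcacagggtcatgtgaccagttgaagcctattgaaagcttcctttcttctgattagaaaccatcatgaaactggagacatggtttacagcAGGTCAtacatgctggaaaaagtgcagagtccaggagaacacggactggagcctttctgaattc
Nr5a2, proximal start, chr1:136953631-136953880: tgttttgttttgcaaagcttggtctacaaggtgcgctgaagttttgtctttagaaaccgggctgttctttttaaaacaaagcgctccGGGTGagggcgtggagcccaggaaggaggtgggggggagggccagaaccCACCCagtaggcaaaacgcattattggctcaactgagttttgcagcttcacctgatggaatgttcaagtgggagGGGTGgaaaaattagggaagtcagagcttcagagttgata
Tfcp2l1, chr1:118627695-118627922: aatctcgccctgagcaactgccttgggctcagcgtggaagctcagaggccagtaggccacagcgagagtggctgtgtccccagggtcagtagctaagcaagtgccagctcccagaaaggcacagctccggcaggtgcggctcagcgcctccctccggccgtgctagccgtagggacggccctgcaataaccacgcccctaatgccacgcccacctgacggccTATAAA

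TATAAA occurred in the windows of all 3 of these genes, in a window of *Nr5a2* on the opposite strand, and in no window of the other 4 factors with an entry (*Esrrb*, *Klf2*, *Klf4* and *Zfp42*; *Klf5*, *Tbx3* and *Prdm14* had none). It was present in 12.4% of 32851 windows of the same length. That share is per window, and *Nr5a2* and *Esrrb* each had a pair of windows. The match lay near the annotated start at *Nr0b1* and *Tfcp2l1* but well upstream of the distal start at *Nr5a2*. AGGTCA was found at *Nr0b1* and at the distal start of *Nr5a2*, and in 14% of all windows. CACCC was in 6 of the 9 factor windows and in 52% of all windows. Also searched were TTCCNGGAA (the STAT site, in none of the 9) and ATTTGCAT (the octamer, in the *Zfp42* window), present in 0.913% and 1.6% of all windows. These are matches of letters and do not show that a factor binds.

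Of the 3 nuclear receptors, *Esrrb* moved least. *Esrrb* is an orphan receptor that GSK3 inhibition keeps on and the longest of the factors (chr12:86361117-86521628, plus strand, 160.5 kb). Its steady-state RPKM was 8.60 and 7.79 in WT against 8.20 and 8.77, and the genotypes overlapped in all 3 conditions. The mean difference was 0.00 (SE 0.09, limma adjusted p = 0.988).

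The Krüppel-like factors *Klf2*, *Klf4* and *Klf5* bind related GC-rich sites and can stand in for each other in self-renewal, but their nascent RNA did not move as a group. *Klf2* (chr8:72319062-72321654, plus strand, 2.6 kb) read 10.1 and 13.2 RPKM in the WT and 14.8 and 22.3 in the null-labelled steady-state libraries. At 10 min it read 6.80 and 9.64 against 12.3 and 11.6. The groups were apart at both, by 1.59-fold and 1.45-fold, while at 5 min they overlapped widely (7.92 and 14.4 against 8.49 and 16.2). In each 5-min and steady-state group the second library was the higher, and the mean difference of 0.45 (SE 0.22) passed only when the replicate number was a block (limma adjusted p = 0.198 without and 0.0299 with it).

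*Klf4*, a direct target of STAT3 (chr4:55527137-55532475, minus strand, 5.3 kb), was alike in steady state (10.6 and 11.9 RPKM in WT, 11.7 and 11.1 in null-labelled libraries) and at 10 min (19.7 and 19.1 against 19.8 and 18.1). At 5 min it was 21.1 and 22.9 against 13.8 and 16.8. Its null-labelled level was thus 0.697 of WT at 5 min with no overlap, short of 1.5-fold. The change of the log2 difference from steady state to 5 min was -0.54 (SE 0.17), with a limma adjusted p of 0.658 over 11975 genes. At 5 min 0.0501% of genes passed this test with a rise and as many with a fall, and no factor did (2, *Klf4* and *Klf5*, had an unadjusted p under 0.05, as 6.51% of genes did). The mean difference of *Klf4* was -0.18 (SE 0.07, limma adjusted p = 0.106) and passed after quantile normalization (0.0119) or removal of the GC trend (0.0417).

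*Klf5* (chr14:99298691-99313412, plus strand, 14.7 kb) changed side between conditions. In steady state the WT libraries held 19.5 and 18.4 RPKM and the null-labelled ones 22.7 and 19.7, higher with no overlap, a log2 difference of 0.16 that was 0.05 without the library labelled wild type (22.7). At 5 min they held 30.4 and 29.8 against 21.3 and 26.4, and at 10 min 56.8 and 57.3 against 50.7 and 49.8, lower with no overlap at both. The change from steady state was -0.50 (SE 0.17, limma adjusted p = 0.678) at 5 min and -0.34 (SE 0.17, adjusted p = 1) at 10 min. *Klf5* lies on the chromosome whose genes as a whole were higher in the null-labelled libraries. Of the other genes tested on chromosome 14, 93.7% had a higher log2 ratio than *Klf5* in steady state, 97.1% at 5 min and 98.4% at 10 min. The genes within 5 Mb of it had median log2 ratios of 0.21, 0.13 and 0.27, lower than the chromosome as a whole, and *Klf5* was below 8, 11 and 11 of these 11 genes.

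**Figure D3:**
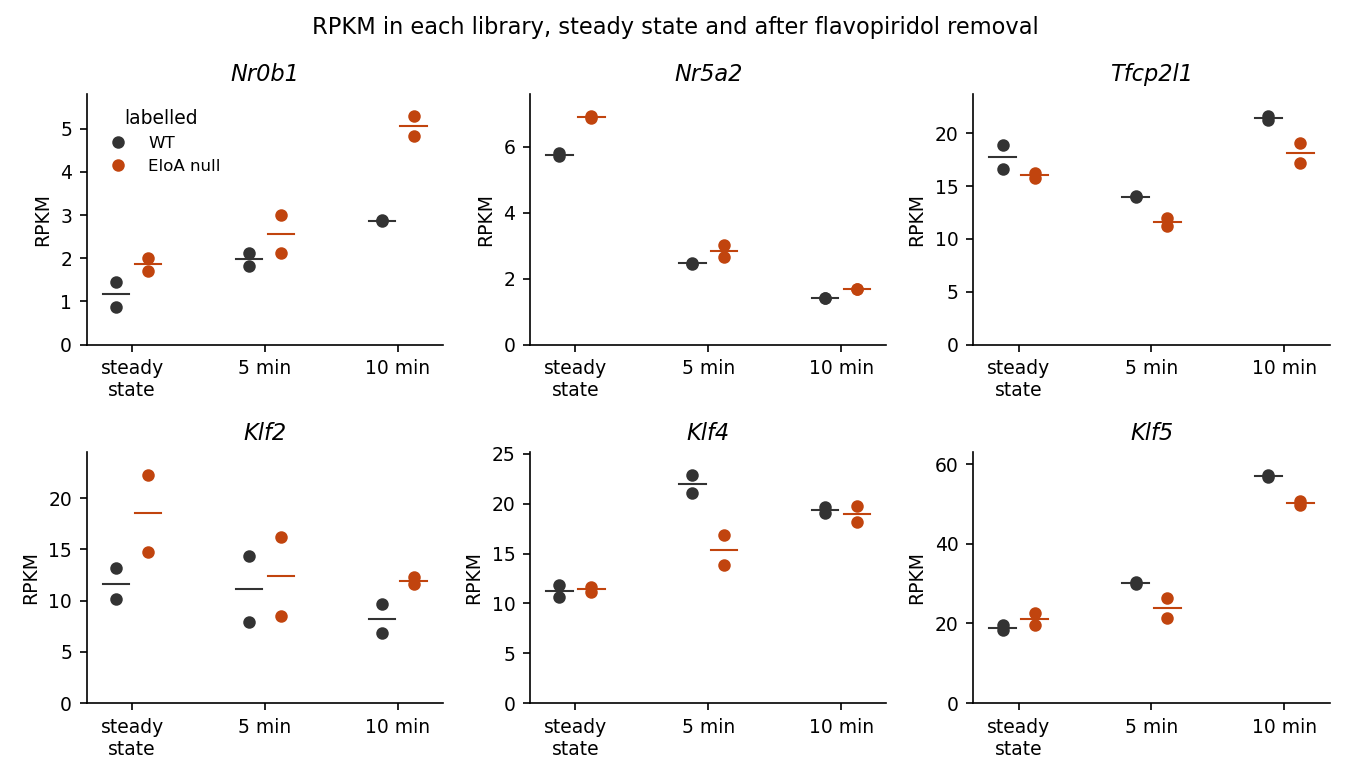
RPKM of 6 factors in every library (points; bars are means of 2) in steady state and 5 and 10 min after flavopiridol removal, black for WT and orange for labelled EloA null, each panel on its own axis from 0. *Nr5a2* falls from steady state through 10 min in both genotypes, *Klf5* rises (57.1 at 10 min in WT), and *Klf4* separates the genotypes at 5 min alone.

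The remaining 3 factors had no called difference. *Zfp42* (chr8:43295067-43307009, minus strand, 11.9 kb) was lower in the null-labelled libraries in each mean: 85.7 and 82.4 RPKM against 74.7 and 79.6 in steady state, 98.0 and 121 against 70.1 and 105 at 5 min, and 123 and 151 against 109 and 116 at 10 min. The groups overlapped at 5 min. Its mean difference was -0.25 (SE 0.12, limma adjusted p = 0.175, or 0.0427 with the replicate block). *Tbx3*, which supports self-renewal downstream of PI3K and MAPK inputs (chr5:119670534-119684724, plus strand, 14.2 kb), read 25.8 and 23.2 in WT and 27.7 and 24.2 in the null-labelled steady-state libraries. At 5 min it read 61.0 and 50.6 against 50.1 and 47.2, and at 10 min 65.1 and 62.8 against 60.3 and 55.5, lower with no overlap at both. The groups overlapped in steady state, and the mean difference was -0.09 (SE 0.07, limma adjusted p = 0.452). *Prdm14*, which restrains FGF signalling and de novo DNA methylation (chr1:13113428-13127163, minus strand, 13.7 kb), read 5.63 and 4.73 against 5.90 and 4.93 in steady state, where they overlapped. It was lower with no overlap at 5 min (1.92 and 1.72 against 1.65 and 1.46) and at 10 min (4.10 and 3.99 against 3.67 and 3.32), with a mean difference of -0.12 (SE 0.07, limma adjusted p = 0.310).

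After flavopiridol the factors came back very unevenly. The measure was the RPKM in recovery divided by the mean RPKM of the same genotype in steady state, given as the mean of 2 libraries. It is set beside the median of expressed genes of like length, since the ratio varied with length. At 5 min in WT that median was 0.453 for genes of 30 to 60 kb and 1.77 for genes over 200 kb. RPKM is a share of each library, so this ratio is relative to the other genes and is not a rate, and the 5-min groups were also labelled for a shorter time than the 10-min and steady-state groups. The SD given with a ratio covers the 2 recovery libraries alone and leaves out the spread of the steady-state pair. In WT cells at 5 min *Tbx3* stood at 2.28 ± 0.30 (SD, n = 2), where genes of 10 to 15 kb had a median of 0.719. *Klf4* stood at 1.95 ± 0.12 (genes of 5 to 10 kb, 0.820) and *Nr0b1* at 1.70 ± 0.19 (genes under 5 kb, 0.773). *Klf5* and *Zfp42*, at 1.59 and 1.30, also lay above their band. *Prdm14*, of the same length class as *Tbx3*, stood at 0.351 ± 0.027. *Klf2* was at 0.957 ± 0.391, and its replicates (0.681 and 1.23) do not place it.

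At 10 min *Klf5* had the highest ratio, 3.01 ± 0.02, ahead of *Tbx3* (2.61 ± 0.06) and *Nr0b1* (2.46 ± 0.01). The place of *Nr0b1* in this order is loose, since its WT steady-state libraries read 1.46 and 0.873 RPKM. Among genes of 10 to 15 kb the median was then 1.74, so *Zfp42* (1.63) was near it and *Prdm14* (0.780 ± 0.015) remained below. *Klf4* had fallen back to 1.72 ± 0.04, near its band's 1.63. *Prdm14* nevertheless gained the most of the factors between 5 and 10 min, 2.22-fold, followed by *Klf5* with 1.90-fold and *Esrrb* with 1.75-fold. The size and direction of changes from 5 to 10 min depend on the scaling of the libraries. With each library divided by the median RPKM of expressed genes, the factors' median WT ratio went from 1.42 to 1.08, in place of from 1.13 to 1.45.

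The longest factors went opposite ways. *Esrrb* stood at 0.732 ± 0.154 at 5 min and 1.28 ± 0.10 at 10 min, above 97.9% of the 761 genes of 100 to 200 kb. *Nr5a2*, in the same band, stood at 0.427 ± 0.003 and then 0.247 ± 0.001, above only 2.50% of them, and its RPKM at 10 min was 0.578 of that at 5 min. The band's median went from 0.998 to 0.603. RefSeq gives each of these genes a pair of annotated starts, as it also does *Tbx3*. *Tfcp2l1*, of 57.2 kb, stood at 0.789 ± 0.004 and 1.21 ± 0.01, above the medians of genes of 30 to 60 kb (0.453 and 0.858).

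The null-labelled cells had the same 3 factors highest and the same factor lowest at 10 min: *Nr0b1* stood at 2.72 ± 0.17, *Klf5* at 2.37 ± 0.03 and *Tbx3* at 2.23 ± 0.13, and *Nr5a2* at 0.244 ± 0.001, with *Esrrb* at 1.23 ± 0.18. At 5 min *Tbx3* stood at 1.88 ± 0.08, *Klf4* at 1.34 ± 0.19 and *Klf5* at 1.12 ± 0.17. Whether recovery differed between genotypes is what the change of the log2 difference tests, and no factor passed it at 5 or 10 min (adjusted p from 0.658 to 0.965 and 1 for all; at 10 min 0.00835% of genes passed with a rise and 0% with a fall, and no factor had an unadjusted p under 0.05, as 1.64% of genes did).

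**Figure D4:**
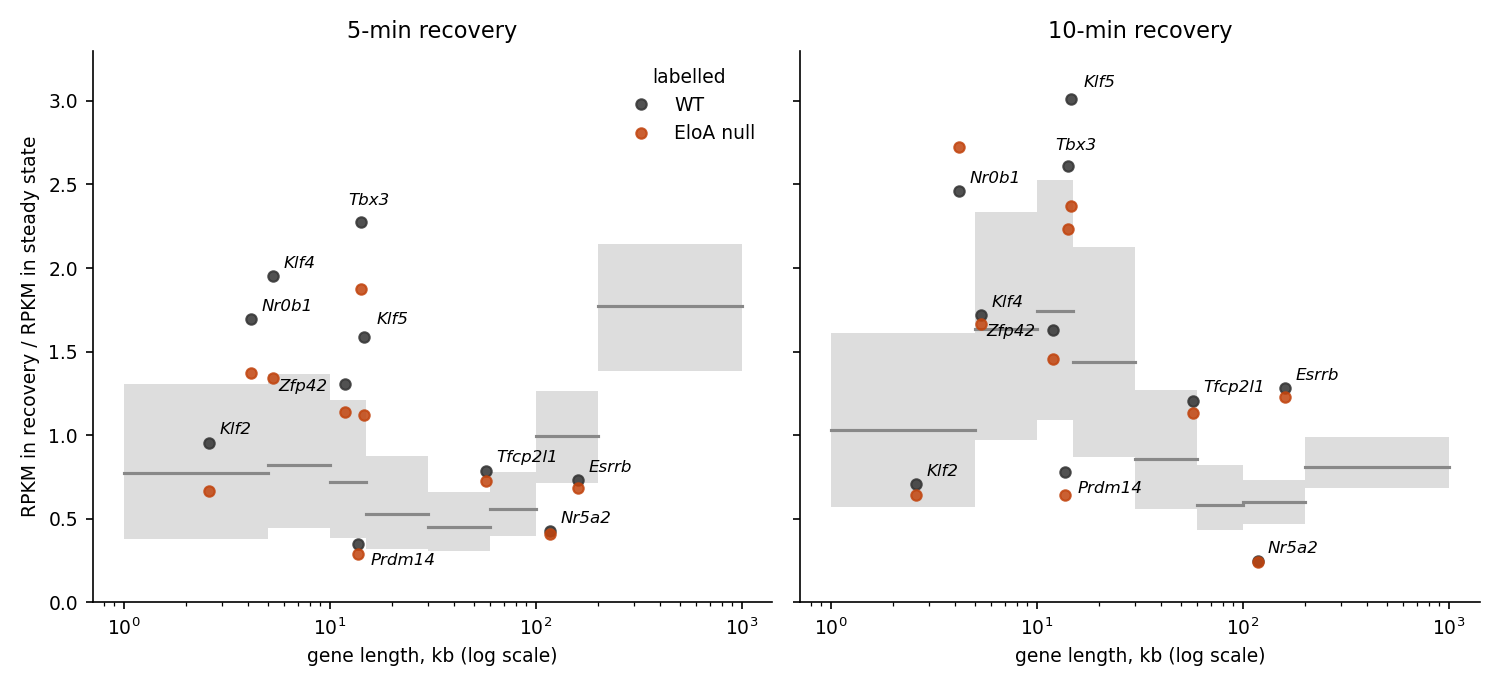
Recovery RPKM over mean steady-state RPKM (mean of 2 libraries) against gene length in kb on a log axis, at 5 min (left) and 10 min (right), black for WT and orange for labelled EloA null; grey lines and boxes are the median and middle quartiles of WT expressed genes in each length band. *Tbx3* (2.28), *Klf4* and *Nr0b1* stand above their bands at 5 min, *Klf5* (3.01) is highest at 10 min, and *Esrrb* and *Nr5a2* lie above and below the same band.

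The rest of the pluripotency network was read from lists of known genes. Of 4 core factors (*Pou5f1*, *Sox2*, *Nanog* and *Sall4*) none was called in the 12-library limma fit (0 of 4, where 10.4% of all genes were higher and 8.08% lower). *Pou5f1*, which encodes OCT4, had the highest ratio, with steady-state RPKM of 7.36 and 8.48 in WT and 10.6 and 16.5 in the null-labelled libraries and a mean difference of 0.46 (SE 0.17, limma adjusted p = 0.0898), and *Nanog* the lowest, -0.07 (SE 0.12, adjusted p = 0.720). Of 15 tested genes for signals and regulators of the network, 1 rose and 2 fell. *Ncoa3*, a coactivator that works with Esrrb, was higher by 0.28 (limma adjusted p = 0.0301), *Il6st*, the gp130 chain of the LIF receptor, lower by 0.33 on the log2 scale (adjusted p = 0.00548) and *Fnip1*, a partner of folliculin in the control of Tfe3, lower by 0.43 (adjusted p = 0.00516). *Socs3*, the STAT3 feedback inhibitor, had the lowest ratio (-0.64) and *Tfe3* the highest (0.29), neither called (adjusted p = 0.207 and 0.0574).

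Other genes of the naive state moved in both directions, 3 higher and 4 lower of 18 tested, with a median of 0.02, where 10.4% of all genes were higher and 8.08% lower. *Tdh*, the threonine dehydrogenase of mouse stem cells, was higher by 0.68 (SE 0.06, limma adjusted p = 0.000542), from 15.2 to 26.4 mean RPKM in steady state. *Tdh* lies on chromosome 14, whose 441 tested genes had a median of 0.45 in this fit, and 20.5% of the others there had a higher ratio. *Kit* was lower by 0.42 (adjusted p = 0.00201), *Jam2* by 0.27 (0.0155), and *Manba* higher by 0.42 (0.00543). Of 8 tested formative and primed genes, which rise as cells leave the naive state, 3 were higher and 0 lower, with a median of 0.34, beside the same 10.4% and 8.08% of all genes. They were *Zic2* (0.59, limma adjusted p = 0.00769), *Etv4* (0.38, 0.0187) and the de novo methyltransferase *Dnmt3b* (0.37, 0.00618), and *Cdh2* had the lowest ratio (-0.10, 0.433). *Zic2* read 4.03 and 6.19 mean RPKM in WT and null-labelled steady-state cells. It too lies on chromosome 14, where 33.0% of the other genes had a higher ratio. Leaving out the 2 tested genes of this list on that chromosome, 2 of 6 were higher and the median was 0.27.

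Markers of other cells were mostly under the expression limit. Over all genes the limma fit of all libraries called 10.4% higher and 8.08% lower. With so few genes tested in each list, calls among these markers cannot be told from those shares. Of 16 fibroblast genes 3 were tested and *Lox* was lower (-0.52, limma adjusted p = 0.0123), with *Fn1* the highest (0.14, 0.0819) and a median of -0.36. Of 9 endoderm genes only *Lama1* was tested, and it was lower (-0.62, 0.000302), from 3.57 to 2.46 mean RPKM in steady state. Summed over the list, endoderm genes gave 4.69 to 4.88 RPKM in WT and 3.61 to 3.64 in null-labelled steady-state libraries, and without *Lama1* 1.17 to 1.25 and 1.11 to 1.22, so *Lama1* held most of the sum and of its difference. Of 8 neural genes 2 were tested with no call (*Tubb3* 0.34, *Nes* -0.25; adjusted p = 0.0703 and 0.532), and of 7 genes of 2-cell-like cells *Usp17la* alone was tested. It passed the RPKM limit through the WT 5-min group alone (mean 0.609 RPKM, with 0.0369 to 0.115 in the other 5 groups), so no difference is read from it. The part of these cell types in the differences of the naive factors was not tested. In bulk libraries fewer cells of a type and less RNA per cell cannot be told apart.

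Across the 12 libraries the factors did not share a single profile. By Pearson's r of log2(RPKM + 0.1), given as a description over libraries that share tables and depth, the best partner of a factor within the list ranged from 0.55 (*Klf2* with *Nr5a2*) to 0.91 (*Klf4* with *Tbx3*). *Esrrb* was most like *Tfcp2l1* (0.87) and *Klf5* most like *Zfp42* (0.85). Over all genes the closest to each factor were not naive factors, which says little with 10 factors among 11975 genes. They were *Srl* and *Ints6* for *Nr5a2* (1.00 and 0.99), *Eed* and *Ciao1* for *Klf5* (both 0.99), *Ttpal* and *Llgl1* for *Esrrb* (both 0.99), *Shmt1* and *Bdh1* for *Tfcp2l1* (0.99 and 0.98), *Sgf29* and *Zfp612* for *Prdm14* (both 0.99) and *Btbd16* and *Mtnr1a* for *Tbx3* (both 0.99). For *Zfp42* they were *Pip5k1a* (0.97) and *Rcl1* (0.95), for *Klf4* *Ccdc96* (0.97) and *Ppid* (0.96), for *Nr0b1* *Npm2* and *Ppp4c* (both 0.97), and for *Klf2* *Gm5617* and *Ier5l* (both 0.88). Overlapping annotation touched 3 factors, *Esrrb* with *Gm40483* over 56 bases, *Tbx3* with *Tbx3os1* over 975 bases and *Tfcp2l1* with a pseudogene over 130 bases, none of which has a row of its own in the tables.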

How the data were processed

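The data were 12 Bru-seq libraries of mouse embryonic stem cells, 2 in each of 6 groups set from the sample titles. CUT&RUN and ChIP libraries (16 samples) were not used here. Per the study's methods and the labels, the authors aligned reads to mm10 and dm3 with Bowtie2 2.3.4.3, kept unique alignments, counted reads over RefSeq genes by strand with featureCounts 1.6.1 and deposited RPKM values, 1 table per condition. Genes with introns and a single RefSeq exon structure were checked for the length behind the RPKM. Their RPKM came out as whole reads (within 0.05 reads, for 98.9 to 99.2% of genes checked) with the merged introns plus 1 exon base on each side. For these genes, and for the factors, the length behind the RPKM is therefore intronic, whereas the study's methods name whole genes. Library sizes were recovered from the genes checked. The length used for genes without introns was not determined. Whether exon reads were counted cannot be told from the values.

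Analyses ran in R 4.3.3 with limma 3.58.1 (limma-trend on log2(RPKM + 0.1), genes with a mean RPKM above 0.5 in either genotype, Benjamini-Hochberg adjustment over all genes) and in Python 3.11.15. A fold on this scale understates the change of low genes. Each table was fitted alone, and a fit of 12 libraries with 6 group means (6 residual degrees of freedom) gave the mean of the 3 within-table differences and their changes. Libraries of a group are called independent experiments by the study, with no further detail, and p-values measure the spread between them. Whether same-numbered libraries of the 3 conditions come from the same cultures is not stated. The 12-library fit treats all of its libraries as independent. Replicate numbers paired the samples by a weak correlation of replicate differences between genotypes (0.101, 0.119 and 0.103 in the 3 tables), so values with a replicate block are given where they change a call. On simulated data the steady-state fit recovered 0 of 49 genes changed 1.5-fold, 4 of 47 at 2-fold and 38 of 50 at 4-fold (11206 genes), and the 12-library fit 31 of 50, 45 of 49 and 49 of 50 (11836 genes). The fits also called 4 and 9 unchanged genes. The simulation changed few genes and pooled each gene's spread over all 6 groups, so recovery in the real tables may differ. Intervals from depth were not computed, and read numbers cover counting error only. Named were all 10 factors, *Eloa*, and from each other list the highest and lowest mean ratio and the called genes (at most 4 by p). For each factor the 2 genes with the closest profile were named. Promoter sequences are RefSeq GRCm38.p6, and 7 of the 10 factors matched by symbol. The factors and the lists were chosen with earlier results of these data known. 1 gene of the formative and primed list is not reported here, and that list's counts and median leave it out. Alternatives were another pseudocount, RPKM limit, centring, quantile normalization, the replicate block, leaving out each library and, chosen after seeing the data, removal of a GC trend.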

Additional observations from a re-analysis of the deposited data

Results flagged for a closer look

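*Klf5* is singled out because the difference between genotypes pointed opposite ways under different conditions, with every null-labelled library on the same side of every WT library each time: the log2 ratio of EloA null over WT was 0.16 in steady state, -0.35 at 5 min and -0.18 at 10 min of recovery. The steady-state ratio was 0.05 without the first EloA null library, which carries the wild type label. The difference itself was tested as the change from steady state in the 12-library limma fit, with an adjusted p of 0.678 at 5 min and 1 at 10 min, so it did not pass.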

How the results depend on the processing

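The directions of *Nr0b1*, *Nr5a2* and *Tfcp2l1* in the 12-library fit were kept under every alternative run, but each call rested on few libraries. *Nr0b1* lost it under 4 alternatives (adjusted p of at most 0.201), *Nr5a2* under 4 (at most 0.142) and *Tfcp2l1* under 13 (at most 0.205), the highest values coming without the 4 libraries of 10-min recovery; the cause was not tested beyond the smaller number of libraries. *Klf2* gained a call under 1 alternative, *Klf4* under 3 and *Zfp42* under 2. Leaving out each library in turn, the number of called factors ran from 0 to 5 and of called genes from 1251 to 2318, against 3 and 2215, with 0 factors without the first EloA null library of 10-min recovery, 1 without the first of steady state and 5 without the second of 5-min recovery. Without all libraries of steady state or of 10-min recovery 0 factors and 644 or 446 genes were called, and the factors' median log2 difference was -0.189 without steady state and -0.00917 without 5-min recovery. With the replicate block the fit called 4 factors and 2430 genes, and at 5 min alone it called 128 genes where none was called without it; beyond *Klf2*, *Zfp42* and *Tfcp2l1* the block changed no call of a factor.

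The factors' median difference in steady state became 0.0115 with median centring, 0.0048 with quantile normalization and -0.0215 without the GC trend. At 5 min it became -0.098 with quantile normalization, and at 10 min -0.184 with median centring and -0.237 without the GC trend. Leaving out a library gave medians of 0.0198 to 0.183 in steady state, -0.253 to -0.144 at 5 min, -0.178 to -0.0260 at 10 min and -0.138 to -0.0647 for the mean. Small differences changed sign. In steady state *Klf4* became -0.0404 with median centring, -0.0440 with quantile normalization and -0.216 without the GC trend, *Esrrb* -0.00925, -0.0188 and -0.0844, and *Tbx3* -0.0140 with quantile normalization and -0.0551 without the GC trend. *Esrrb* became 0.0351 and 0.0022 at 5 min with median centring and without the GC trend, and in the mean -0.0178, -0.0508, -0.0795 and -0.0209 with median centring, quantile normalization, no GC trend and no steady-state libraries. Leaving out a library moved steady-state *Klf4* between -0.0588 and 0.0978, *Esrrb* between -0.0198 and 0.121, *Tbx3* between -0.0166 and 0.176 and *Prdm14* between -0.0645 and 0.190. It moved *Klf2* at 5 min between -0.326 and 0.601, *Esrrb* between -0.243 and 0.181 at 5 min, -0.159 and 0.137 at 10 min and -0.0678 and 0.0737 in the mean, and *Klf4* between -0.0932 and 0.0329 at 10 min.

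The 10-min table, with 0 called genes, had 5 with a pseudocount of 1, 7 with an RPKM limit of 2, 12 with median centring, 6 with quantile normalization and 11 without the GC trend, and 0 to 33 without a library. The 5-min table had 0 to 60 without a library, and in steady state 1 gene was called with an RPKM limit of 2. The factors past 1.5-fold without overlap in steady state fell from 2 to 1 with that limit, which *Nr0b1* does not pass, and to 1 without the GC trend, and ran from 1 to 2 at 10 min and from 0 to 2 at 5 min without a library. For the change from steady state to 5 min, 3 genes were called with a pseudocount of 1, 2 with the replicate block and 7 without the GC trend, against 12, and 2 to 28 without a library; the factors' median became -0.121 with median centring and -0.138 without the GC trend, and -0.371 to -0.151 without a library. For the change to 10 min 4 genes were called with a pseudocount of 1, against 1. Dividing each library by the median RPKM of expressed genes moved the factors' median recovery ratio from 1.13 to 1.42 in WT and from 0.924 to 1.22 in EloA null cells at 5 min, and from 1.45 to 1.08 and from 1.34 to 0.948 at 10 min. At 50 to 486 reads a library, *Nr0b1* and *Klf2* carry more counting error than the other factors. How much of the spread between their replicates comes from it was not tested. The *Klf2* libraries of EloA null cells at 5 min read 8.49 and 16.2 RPKM at 79 and 219 reads.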
